A study of Mus musculus with 8 samples.

Results

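The genes of DNA replication and nucleotide supply comprised 39 genes chosen by name, of which 38 were measured in both value tables of a study of Twist1 in mouse skin tumours. They stood among 14554 genes tested in the first table and 13667 in the second. Each gene was read from a probe set, a group of short array probes for the same transcript, that the platform annotation gives to that gene alone. Of several probe sets for a gene, the brightest on average in that table was taken. No probe set was listed for Chaf1a, which was not analysed here.

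Tumours had been induced with the carcinogen DMBA and the promoter TPA, and all mice, controls included, received 5 doses of 2 mg tamoxifen. The first table held 2 arrays of K14CreER:Twist1fl/fl mice, in which Twist1 is deleted, and 2 arrays of Twist1fl/fl controls. The second held 2 arrays of K14CreER:Twist1fl/fl:p53fl/fl mice, in which Twist1 and p53 are deleted together, and 2 arrays of Twist1fl/fl:p53fl/fl controls. K14CreER is a tamoxifen-activated recombinase driven by the keratin 14 promoter, so floxed alleles are removed only in cells that use this promoter, and the controls carry the floxed alleles without the recombinase. The mice were littermates of mixed background with several transgenes combined. Their ages are not given in the sources used here, and the labels do not say whether the 2 arrays of a group came from separate mice or cultures, so the p-values measure only the spread between these arrays. Live tumour cells with Epcam and without lineage markers had been sorted, and their total RNA was hybridised to Affymetrix arrays.

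Before a cell divides, the origin recognition complex with Cdc6 and Cdt1 loads the MCM helicase onto DNA in G1 phase. In S phase Cdc45 and the GINS complex switch the helicase on, primase and the DNA polymerases copy both strands on a sliding clamp, and ribonucleotide reductase and thymidylate synthase supply the building blocks. Many of these genes are induced at the G1/S transition by E2F transcription factors, which the Rb family holds back, so their messages are widely used as a readout of cycling cells.

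Values below are log2 and run control 1 and 2 against deletion 1 and 2. Twist1 itself read 5.20 and 7.18 against 3.81 and 3.90 after its own deletion, and 6.15 and 6.04 against 4.82 and 5.01 after the double deletion. Whether its probe set lies within the deleted part is not known here. All 6 epithelial markers examined (Epcam, Cdh1, Krt14, Krt5, Itga6 and Krt15) were above the low-value filter in both tables, with means over the list between 11.05 and 12.27 on the log2 scale. The 6 leukocyte markers listed averaged between 4.18 and 4.98, and Ptprc, which encodes CD45, lay below the filter in both tables. The means of the endothelial list lay between 4.60 and 5.06 and those of the fibroblast list between 4.86 and 6.43. The 4 melanocyte markers averaged 4.90 and 5.03 against 5.31 and 5.29 after Twist1 deletion (median difference 0.45) and between 4.72 and 5.22 in the double deletion. Of these 4 non-epithelial lists 1 gene passed the test, the fibroblast gene Lum in the double deletion, at 4.71 and 4.94 against 3.69 and 3.75 (limma adjusted p = 0.0321). The fibroblast genes Col1a1 (10.10 and 10.33 against 8.55 and 6.84, adjusted p = 0.116) and Dcn (5.04 and 4.92 against 7.81 and 5.85, adjusted p = 0.216) differed widely there, also between the 2 deletion arrays. The part of these cells in the results was not tested. The sex-linked transcripts Xist and Eif2s3y separated the groups in both tables, with Xist at 11.81 and 11.87 against 6.98 and 6.07 and at 10.92 and 10.89 against 4.06 and 3.66, so that sex and deletion cannot be told apart.

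After deletion of Twist1 alone, every one of the 38 genes had a lower mean in the deletion arrays than in its controls. With quantile normalization, however, Orc6 (0.05) and Rpa3 (0.01) had higher ones. With the mean over probe sets 36 genes were lower and 1, Prim2, was higher, and Tyms fell below the filter. Fewer cycling cells and less RNA per cell cannot be told apart in bulk samples. The log2 fold changes, deletion minus control, ran from -0.71 to -0.00109 with a median of -0.32, against a median of -0.03 over all 14554 genes, of which 54.2% had a lower mean. For 29 of the 38 both deletion arrays lay below both controls, which held for 24.7% of all genes. An unadjusted p under 0.05 (limma) with a lower mean was found for 9 genes (Orc1, Mcm6, Cdc45, Gins1, Pola1, Pold2, Prim1, Chaf1b and Rrm1), against 5.81% of all genes, and with a higher mean for none (3.36%). No gene of the group passed the threshold of an adjusted p under 0.05, where 0.0344% of all genes passed, 0.00687% as lower and 0.0275% as higher, and the adjusted p-values of the group lay between 0.464 and 0.999. The 1 gene called lower was the sex-linked Xist, and the sex-linked Eif2s3y and Uty were among the 4 called higher. The shift was carried by both deletion arrays, with medians over the 38 genes of -0.27 and -0.36 relative to the mean of the controls. Without deletion array 2 the median was -0.27 with 31 genes lower and 7 higher, and without control 2 it was -0.41.

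**Figure D1:**
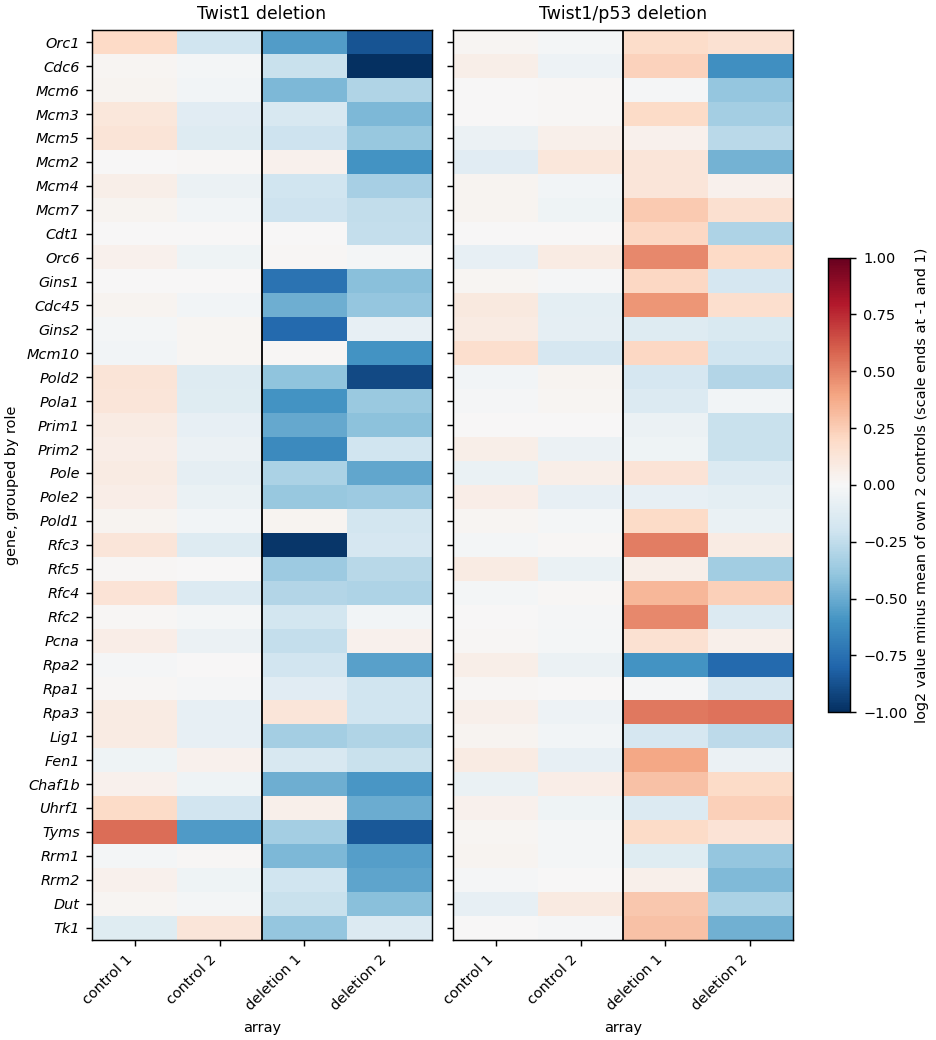
Each row is a gene and each column an array, in 2 panels for the 2 deletions. Colour gives the log2 value minus the mean of the gene's own 2 control arrays, blue for lower and red for higher. Both Twist1 deletion arrays are mostly blue, with medians of -0.27 and -0.36, whereas the Twist1/p53 deletion arrays differ from each other, with medians of 0.17 and -0.16.

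Signs of RNA handling separated the same Twist1 groups. The 3' probe set of Gapdh exceeded the 5' one by 0.04 and 0.03 in the controls and by 0.22 and 0.30 in the deletion arrays, and the poly-A spike-in transcripts averaged 8.36 and 9.26 against 9.63 and 10.64. In the Twist1/p53 table the Gapdh difference was -0.03 and 0.06 against -0.02 and -0.04, and the spike-ins lay between 3.72 and 3.82. These spike-in values are under the low-value filter of that table (3.98), so they cannot show whether its arrays were handled alike. The part of these signs in the shift of the replication genes was not tested.

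When p53 was deleted along with Twist1, the same 38 genes were split, with 20 lower and 18 higher means and a median log2 fold change of -0.04. For 12 of the 38 the probe set differed from that used after Twist1 deletion alone. Over all 13667 genes the median was -0.02 and 53.1% had a lower mean. Groups did not overlap for 9 genes that were lower and 11 that were higher, against 29.8% and 24.5% of all genes. No gene of the group passed the adjusted threshold in limma, where 1.8% of all genes passed, 0.622% as lower and 1.18% as higher, and at an unadjusted p under 0.05 there was 1 lower gene (11.4% of all genes) and 1 higher gene (9.79%). Rpa2 and Rpa3, both described below by their values, were nearest to the threshold.

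**Figure D2:**
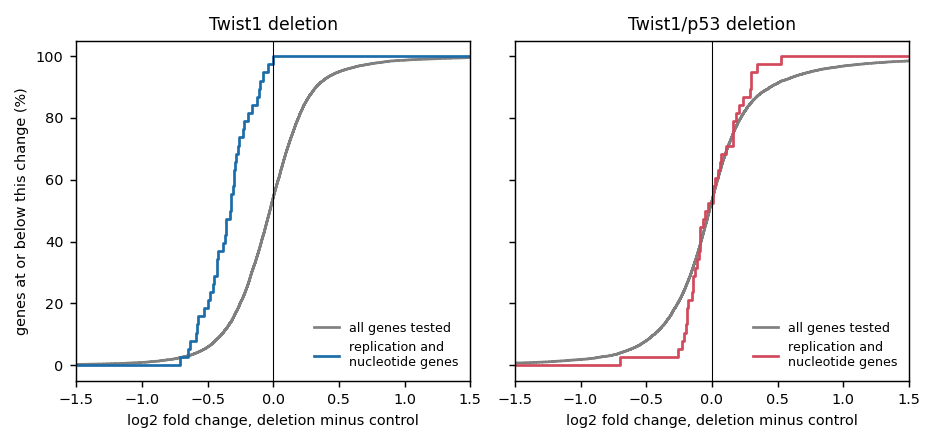
The curves give the percentage of genes whose log2 fold change, deletion minus control, is at or below the value on the horizontal axis, in grey for all genes tested and in colour for the 38 replication and nucleotide genes. In the Twist1 panel the coloured curve reaches 100% just below 0 and has its median at -0.32. In the Twist1/p53 panel its median is -0.04 and that of all genes -0.02.

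The 2 arrays of the double deletion differed from each other in these genes. Deletion array 1 had a median of 0.17 above the controls and deletion array 2 one of -0.16, and array 2 read lower than array 1 in 35 of the 38 genes, against 56.7% of all genes. For 15 genes array 1 lay above and array 2 below the mean of the controls, a pattern found in 18.6% of all genes. Tk1, the thymidine kinase of the salvage pathway, read 9.94 and 9.93 against 10.23 and 9.46 (-0.09, SE 0.27, adjusted p = 0.883). Cdc6, a loader of the helicase, read 5.36 and 5.25 against 5.53 and 4.69. In both genes the 2 control values lay between the 2 deletion values.

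The mean of the double deletion rests on which array is used. Without deletion array 1 the median over the genes was -0.16, and 12 genes (Rpa2, Cdc6, Tk1, Mcm2, Rrm2, Rrm1, Mcm6, Mcm3, Dut, Cdt1, Mcm5 and Lig1) passed as lower (15.3% of all genes did) and 1, Rpa3, as higher (12.3%). Without deletion array 2 it was 0.17, with 1 gene, Rpa2, lower (12.2%) and 5, Tk1, Rfc2, Orc6, Rfc3 and Rpa3, higher (12.5%). Tk1 passed as lower by -0.47 (SE 0.08, limma adjusted p = 0.00643) in the first case and as higher by 0.29 (SE 0.07, adjusted p = 0.0308) in the second. Rpa2 and Rpa3 were the genes that passed in the same direction in both. These fits have a single deletion array, which is assumed to vary like the controls, and without either control array no gene of the group passed.

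Origin licensing was represented by 10 genes, all with lower means after Twist1 deletion (median -0.29, 7 without overlap, against 24.7% of all genes). Orc1, the subunit of the origin recognition complex that is made anew in each cycle, read 7.90 and 7.50 in its 2 controls against 7.14 and 6.84 in the 2 deletion arrays, a difference of -0.71 (SE 0.22, n = 2 arrays each, limma adjusted p = 0.518). Both deletion values lay below both controls. Mcm6, a subunit of the helicase ring, read 10.82 and 10.76 against 10.34 and 10.49, a change of -0.38 (SE 0.12, adjusted p = 0.521). The other helicase subunits Mcm2, Mcm3, Mcm4, Mcm5 and Mcm7 were lower by similar sizes, from -0.31 to -0.23. Of these, Mcm2 overlapped, with 9.72 and 9.73 against 9.76 and 9.12 (-0.28, SE 0.24), so its fall rests on deletion array 2. Cdc6 read 7.57 and 7.53 against 7.33 and 6.51 (-0.63, SE 0.30), and Cdt1, its partner in loading, differed by -0.12 (SE 0.14). Orc6, another subunit of the origin recognition complex, stood at its control level, with 9.16 and 9.08 against 9.13 and 9.10 (-0.00109, SE 0.13, adjusted p = 0.999).

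With both genes deleted, the licensing genes had a median of -0.06, with 6 lower and 4 higher. Orc1 read 5.27 and 5.23 against 5.43 and 5.40 (0.16, SE 0.12, adjusted p = 0.506). Orc6 read 7.81 and 7.97 against 8.37 and 8.09 (0.34, SE 0.16, adjusted p = 0.325), so both deletion values lay above both controls, as for 24.5% of all genes. Mcm6 read 8.45 and 8.46 against 8.44 and 8.06 (-0.20, SE 0.17, adjusted p = 0.571). Mcm7 (0.21, SE 0.12) and Mcm4 (0.07, SE 0.12) were the helicase subunits with higher means.

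E2F proteins bind short GC-rich words in the promoters of many of these genes. The words TTTCCCGC, TTTGGCGC, TTTGCCGC and TTTCGCGC were searched on both strands from 250 bases before to 50 bases after the starts that RefSeq lists on GRCm38.p6, where 33 of the 39 genes were listed. At least 1 of them was present for 13 of the 33 genes (39.4%), before the start in 8 and only after it in 5, against 2.60% of all 27025 genes listed. The CCAAT box CCAAT was present in 63.6% against 41.1%, the GC box GGGCGG in 75.8% against 38.2%, and the words TTTGAA or TTCGAA of the cell-cycle homology region in 18.2% against 21.7%. After Twist1 deletion the 13 genes with an E2F word had a median log2 fold change of -0.32, and the 19 measured genes without one also had -0.32. After the double deletion, the medians were -0.07 and -0.03.

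The 250 bases before the start are shown for 3 genes with an E2F word in this stretch, those with the lowest moderated t after Twist1 deletion, with the matching letters in capitals. Mcm6 holds overlapping words that begin 110 and 106 bases before the start and another at 47, Orc1 a word at 27 and Pola1, the catalytic subunit of polymerase alpha, a word at 138. They lie at chr4:108579204-108579453 on the plus strand for Orc1, at chr1:128359706-128359955 on the minus strand for Mcm6 and at chrX:93632156-93632405 on the minus strand for Pola1, each written 5' to 3' on the gene's own strand. A match of letters does not show that a factor was bound there.
Orc1: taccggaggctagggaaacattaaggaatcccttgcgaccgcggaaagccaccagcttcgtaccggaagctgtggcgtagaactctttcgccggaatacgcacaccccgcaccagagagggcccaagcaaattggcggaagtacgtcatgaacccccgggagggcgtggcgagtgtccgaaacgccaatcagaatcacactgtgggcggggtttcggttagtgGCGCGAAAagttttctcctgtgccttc
Mcm6: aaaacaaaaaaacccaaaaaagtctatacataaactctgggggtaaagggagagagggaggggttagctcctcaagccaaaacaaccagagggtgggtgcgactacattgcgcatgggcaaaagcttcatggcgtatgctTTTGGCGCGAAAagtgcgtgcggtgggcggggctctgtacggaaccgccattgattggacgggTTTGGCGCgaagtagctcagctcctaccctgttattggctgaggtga
Pola1: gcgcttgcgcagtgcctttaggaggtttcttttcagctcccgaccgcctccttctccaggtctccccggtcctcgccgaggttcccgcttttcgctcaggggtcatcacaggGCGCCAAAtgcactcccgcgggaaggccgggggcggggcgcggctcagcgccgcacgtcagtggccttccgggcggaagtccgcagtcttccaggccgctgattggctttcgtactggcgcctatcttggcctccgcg

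The 4 genes of helicase activation had a median of -0.44 after Twist1 deletion. Gins1, a subunit of the GINS complex, read 9.29 and 9.29 against 8.55 and 8.87 (-0.58, SE 0.17, adjusted p = 0.503). Cdc45, which joins the helicase at the fork, read 7.57 and 7.51 against 7.05 and 7.15 (-0.45, SE 0.16, adjusted p = 0.544). Both genes had deletion values below both controls, as 24.7% of all genes did. Mcm10, a factor of fork assembly, was at its control level in 1 deletion array and lower in the other (8.21 and 8.26 against 8.25 and 7.64, a difference of -0.29, SE 0.24, adjusted p = 0.732).

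In the double deletion Cdc45 read 6.60 and 6.40 against 6.94 and 6.67 (0.30, SE 0.18, adjusted p = 0.408) and Gins1 9.05 and 9.02 against 9.24 and 8.86 (0.02, SE 0.17). Gins2, the partner of Gins1, read 9.41 and 9.24 against 9.20 and 9.18 (-0.14, SE 0.12, adjusted p = 0.562). The deletion arrays of Gins1 lay on either side of the controls.

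The 7 polymerase and primase genes had a median of -0.43 after Twist1 deletion, with 6 of them not overlapping (24.7% of all genes). Prim1, the small primase subunit, read 9.98 and 9.82 against 9.39 and 9.49 (-0.46, SE 0.14, adjusted p = 0.513). Pold2, an accessory subunit of polymerase delta, read 9.98 and 9.72 against 9.45 and 8.95 (-0.65, SE 0.22, adjusted p = 0.523), while Pold1, the catalytic subunit of the same enzyme, read 8.78 and 8.72 against 8.78 and 8.57 (-0.08, SE 0.15, adjusted p = 0.892). Pola1, which is X-linked, differed by -0.48 (SE 0.17), Pole by -0.42 (SE 0.17) and its partner Pole2 by -0.37 (SE 0.15).

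After the double deletion this group stayed close to its controls, with a median of -0.09 and changes from -0.23 to 0.06. Pold2 read 9.25 and 9.31 against 9.11 and 8.99 (-0.23, SE 0.11, adjusted p = 0.329). Pold1 read 7.33 and 7.29 against 7.50 and 7.24 (0.06, SE 0.16, adjusted p = 0.862), with the deletion arrays on either side of the controls. Prim1 (-0.14, SE 0.11) and Pola1 (-0.09, SE 0.13) also had deletion values below both controls, by small amounts, as 29.8% of all genes did.

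The sliding clamp and its loader had a median of -0.30 after Twist1 deletion, with 4 of 5 genes not overlapping (24.7% of all genes). Pcna, the clamp, read 12.10 and 11.97 against 11.79 and 12.07 (-0.10, SE 0.14, adjusted p = 0.828), so its groups overlapped. Among the loader subunits Rfc5 read 9.62 and 9.61 against 9.25 and 9.33 (-0.32, SE 0.13, adjusted p = 0.555). Rfc3 was far below its controls in deletion array 1 and close to them in array 2, with 8.48 and 8.23 against 7.39 and 8.19 (-0.57, SE 0.30), and Rfc2 differed by -0.11 (SE 0.14).

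When p53 was deleted too, 4 of these 5 genes had higher means, with a median of 0.18. Rfc4 read 8.12 and 8.15 against 8.47 and 8.38 (0.29, SE 0.12, adjusted p = 0.286). Rfc3 read 9.03 and 9.06 against 9.56 and 9.13 (0.30, SE 0.18) and Pcna 11.13 and 11.10 against 11.27 and 11.17 (0.11, SE 0.07). In all of Rfc4, Rfc3 and Pcna both deletion values lay above both controls, as they did for 24.5% of all genes. Rfc5 read 8.92 and 8.77 against 8.90 and 8.49 (-0.15, SE 0.18, adjusted p = 0.688).

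**Figure D3:**
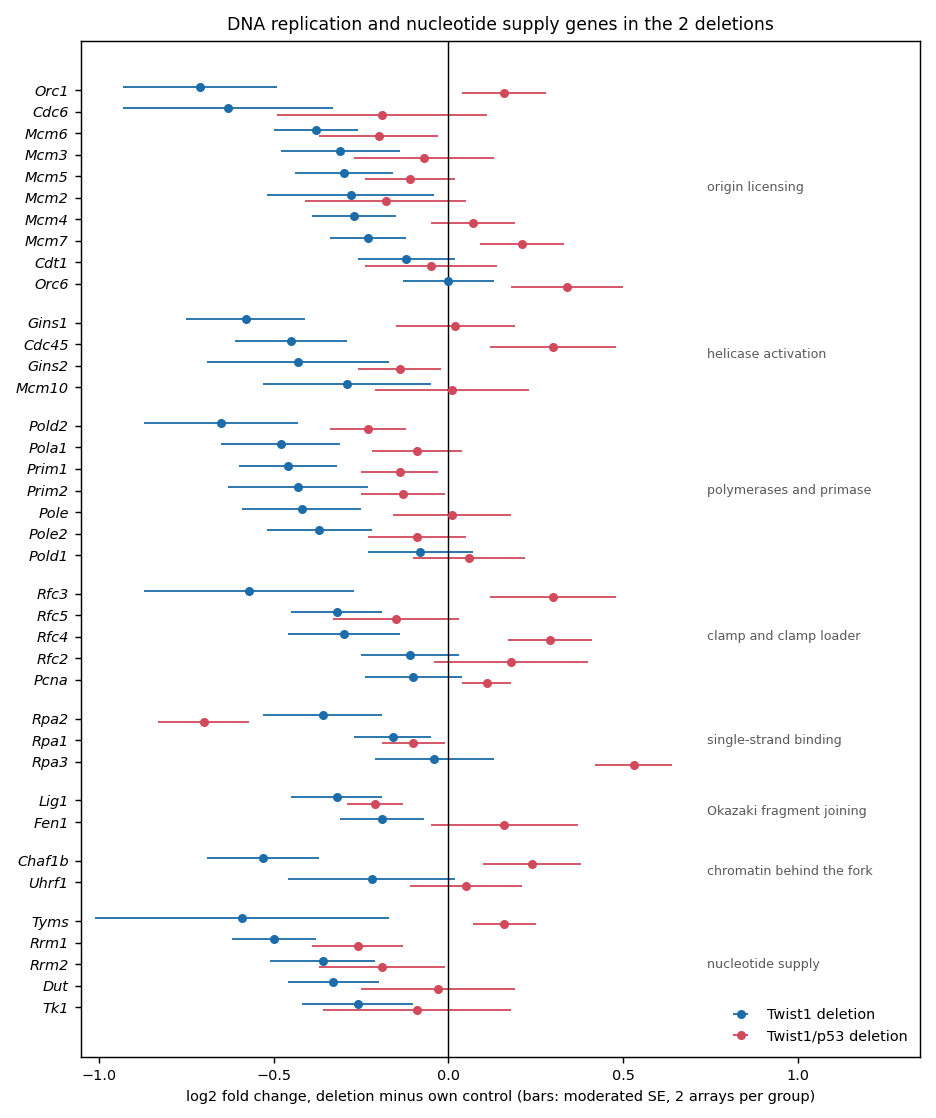
Points give the log2 fold change of each gene, deletion minus its own controls, with the moderated standard error as a bar and 2 arrays per group, in blue for the Twist1 deletion and red for the Twist1/p53 deletion. Genes are grouped by role. All blue points lie at or left of 0, from -0.71 to -0.00109 (with quantile normalization Orc6 and Rpa3 lie right of it, at 0.05 and 0.01), and the red points lie on both sides, from -0.70 for Rpa2 to 0.53 for Rpa3.

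Replication protein A coats single-stranded DNA at the fork as a complex of Rpa1, Rpa2 and Rpa3, and its subunits differed from each other in the double deletion. Rpa2, the middle subunit, read 9.03 and 8.91 against 8.37 and 8.19, which is 38.2% lower on the linear scale (log2 fold change -0.70, SE 0.13, adjusted p = 0.0896). Rpa3, the small subunit, read 8.77 and 8.67 against 9.25 and 9.26, which is 44.4% higher (0.53, SE 0.11, adjusted p = 0.0991). Rpa1, the large subunit, read 10.53 and 10.52 against 10.51 and 10.35 (-0.10, SE 0.09, adjusted p = 0.605). The groups of Rpa2 and Rpa3 did not overlap, in opposite directions, and neither passed the threshold of 0.05. Of all genes in this comparison, 29.8% were lower without overlap and 24.5% higher.

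After Twist1 deletion alone Rpa2 read 9.08 and 9.09 against 8.90 and 8.55 (-0.36, SE 0.17, adjusted p = 0.589). Rpa3 overlapped, with 9.54 and 9.38 against 9.58 and 9.26 (-0.04, SE 0.17, adjusted p = 0.957). Rpa1 read 11.06 and 11.04 against 10.94 and 10.85 (-0.16, SE 0.11, adjusted p = 0.69). A second probe set of Rpa1 changed by -0.33 after Twist1 deletion and by -0.28 after the double deletion. The second probe set of Rpa2 was lower as well, by -1.02 after Twist1 deletion and by -0.44 after the double deletion. The order of the 2 deletions thus turned with the probe set of Rpa2.

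**Figure D4:**
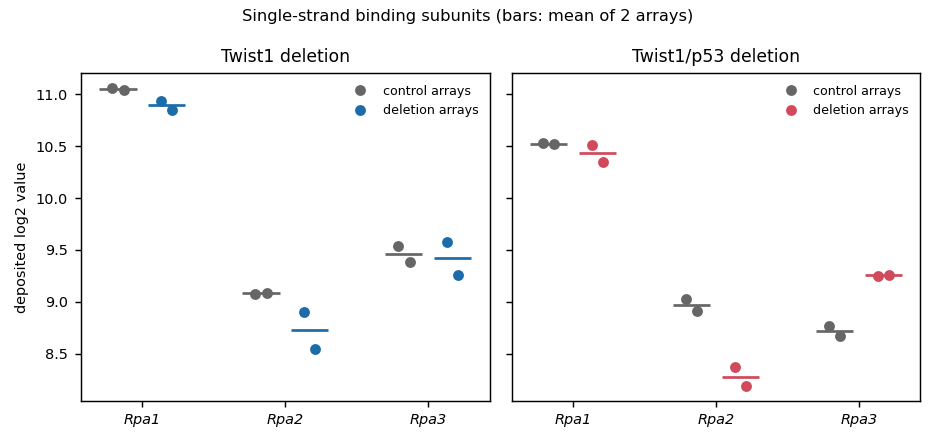
Deposited log2 values of Rpa1, Rpa2 and Rpa3 are shown for each array, with control arrays in grey, deletion arrays in colour and a bar at the mean of 2 arrays. Levels are comparable within a gene and a panel only. In the Twist1/p53 panel the deletion values of Rpa2 (8.37 and 8.19) lie below and those of Rpa3 (9.25 and 9.26) above their controls.

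The 2 genes that process and join Okazaki fragments, the short pieces of the lagging strand, were lower after Twist1 deletion without overlap (24.7% of all genes were). Lig1, the replicative DNA ligase, read 10.11 and 9.95 against 9.69 and 9.73 (-0.32, SE 0.13, adjusted p = 0.556), and Fen1, the flap nuclease, 10.59 and 10.67 against 10.47 and 10.41 (-0.19, SE 0.12, adjusted p = 0.649). When p53 was deleted too, Lig1 read 10.55 and 10.49 against 10.35 and 10.26 (-0.21, SE 0.08, adjusted p = 0.251). Fen1 overlapped there, with 7.13 and 6.97 against 7.44 and 6.99 (0.16, SE 0.21, adjusted p = 0.708). It was read there from another probe set, which changed by -0.43 after Twist1 deletion.

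Chaf1b, a subunit of the chromatin assembly factor that places histones behind the fork, read 8.19 and 8.11 against 7.66 and 7.57 (-0.53, SE 0.16, adjusted p = 0.508). In the double deletion it read 7.73 and 7.87 against 8.09 and 7.99 (0.24, SE 0.14, adjusted p = 0.407). Its groups were separate in both tables and in opposite directions. Of all genes, 24.7% were lower without overlap after Twist1 deletion and 24.5% higher without overlap in the double deletion. Uhrf1, which brings the maintenance DNA methyltransferase to new DNA, overlapped in both, with 10.11 and 9.73 against 9.97 and 9.42 (-0.22, SE 0.24, adjusted p = 0.789) and 9.29 and 9.21 against 9.11 and 9.49 (0.05, SE 0.16, adjusted p = 0.894).

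The nucleotide supply genes had a median of -0.36 after Twist1 deletion. Rrm1, the large subunit of ribonucleotide reductase, had the lowest moderated t of all 38 genes, with 10.82 and 10.85 against 10.39 and 10.29, 29.1% lower on the linear scale (-0.50, SE 0.12, adjusted p = 0.464). Its partner Rrm2 read 11.70 and 11.62 against 11.46 and 11.13 (-0.36, SE 0.15), and Dut, which removes dUTP, 10.62 and 10.58 against 10.38 and 10.18 (-0.33, SE 0.13). In each of Rrm1, Rrm2 and Dut both deletion values lay below both controls, as they did for 24.7% of all genes. Tk1 read 9.87 and 10.11 against 9.60 and 9.85 (-0.26, SE 0.16).

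Tyms, which encodes thymidylate synthase, was read from a weak probe set in the Twist1 table, at 5.93 and 4.80 against 5.03 and 4.52 (-0.59, SE 0.42, adjusted p = 0.691). This value rests on single arrays, at -0.02 without control 1 and -1.16 without control 2. The stronger probe set there also lists the pseudogene Tyms-ps and was left out for that reason, and it read 9.32 and 9.17 against 8.78 and 9.45. In the Twist1/p53 table the matching probe set lists Tyms alone and read 9.58 and 9.54 against 9.75 and 9.70 (0.16, SE 0.09, adjusted p = 0.393).

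In the Twist1/p53 arrays, Rrm1 read 10.06 and 10.01 against 9.91 and 9.64 (-0.26, SE 0.13, adjusted p = 0.333). Rrm2 read 10.22 and 10.23 against 10.28 and 9.79 (-0.19, SE 0.18) and Dut 10.11 and 10.28 against 10.46 and 9.87 (-0.03, SE 0.22). Deletion array 2 was lower than deletion array 1 in all 5 nucleotide supply genes.

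Whether the 2 deletions differ was tested on the difference itself, subtracting the change after Twist1 deletion from that after the double deletion, with probe sets matched between the tables. The probe set of a gene can differ here from that used within a table. The difference was above 0 for 37 of the 38 genes, against 52.0% of 13296 genes, with a median of 0.34 against 0.01. It passed the adjusted threshold for no gene of the group in limma, where 0.173% of all genes passed, 0.15% above 0 and 0.0226% below. An unadjusted p under 0.05 was found for 7 genes above 0 (6.01% of all genes) and for none below (4.36%).

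Chaf1b had the highest moderated t, with a difference of 0.77 (SE 0.20, adjusted p = 0.255) between a change of -0.53 and one of 0.24. Orc1 followed with 0.87 (SE 0.27, adjusted p = 0.341), Cdc45 with 0.75 (SE 0.24, adjusted p = 0.346) and Rfc3 with 0.96 (SE 0.31, adjusted p = 0.354). For Orc1 and Cdc45 this depends on the probe set. The second one of Orc1 changed by -0.19 after Twist1 deletion and by -0.05 after the double deletion, and that of Cdc45 by 0.26 after Twist1 deletion. The other probe set of Rfc3 changed by -0.57 and 0.44, and the second one of Chaf1b lay below the filter in the Twist1 table. Rpa2 was below 0, at -0.34 (SE 0.22, adjusted p = 0.655), on a probe set whose order the second one does not share. The 2 array types share no control arrays but can respond with different scale, and leaving out single arrays gave medians from 0.28 to 0.50, with 31 of 38 genes above 0 when deletion array 1 of the double deletion was left out.

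Genes with high values were lower on the whole after Twist1 deletion. At a mean log2 value of 8 or more, 64.2% of 6116 genes had a lower mean, with a median of -0.08, and all 33 replication and nucleotide genes at this level were lower as deposited, with a median of -0.31 (Orc6 and Rpa3 turned with quantile normalization). With p53 deleted as well, the median at this level was -0.06 over 4727 genes and -0.09 over 29 genes of the group.

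**Figure D5:**
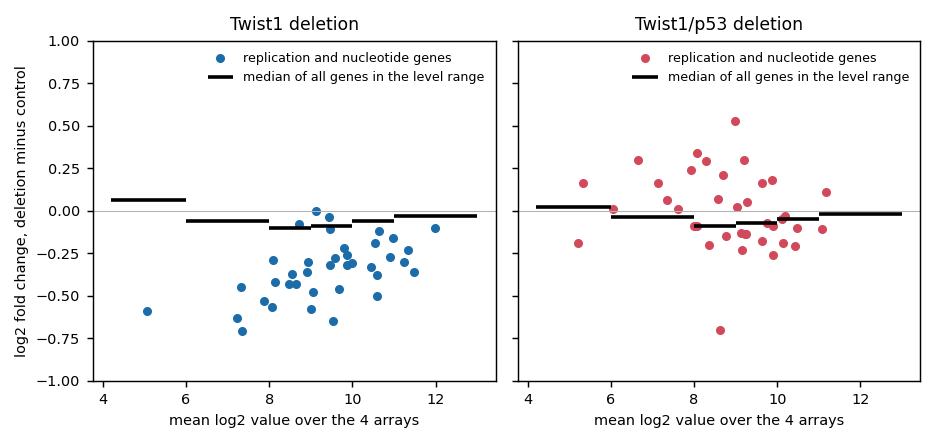
Points show the log2 fold change of each gene, deletion minus control, against its mean log2 value over the 4 arrays of the table, and black bars give the median of all genes in the same range of levels. After Twist1 deletion the medians of all genes at levels from 8 to 9 and from 9 to 10 were -0.10 and -0.09, and those of the group in the same ranges were -0.39 and -0.29.

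Other genes of replication, taken from a separate list, showed a similar picture. Of 35 such genes 33 had lower means after Twist1 deletion (median -0.34, 28 without overlap against 24.7% of all genes). None passed the adjusted threshold and 12 had an unadjusted p under 0.05, all lower (5.81% of all genes). Tipin, which protects stalled forks, read 10.24 and 10.16 against 9.82 and 9.71 (-0.44, SE 0.13, adjusted p = 0.508), and Rnaseh2c, a subunit of the nuclease that removes ribonucleotides from DNA, 9.92 and 9.61 against 10.07 and 9.92 (0.23, SE 0.16). In the double deletion 15 of 31 were lower, none passed, and the median was 0.00126. The kinase Cdc7, which fires origins, read 5.96 and 6.08 against 5.37 and 5.46 (-0.60, SE 0.14, adjusted p = 0.115), and its activator Dbf4 read 6.53 and 6.50 against 6.83 and 7.06 (0.43, SE 0.16, adjusted p = 0.229).

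Other nucleotide supply genes, which include purine and folate enzymes, were lower in 18 of 22 cases after Twist1 deletion (median -0.16, none passing). Over all genes 54.2% were lower. Relative to the control mean, deletion array 1 had a median of 0.00386 with 10 of the 22 genes lower. Deletion array 2 had one of -0.20 with 19 lower, so the fall rests on that array. Without overlap there were 5 of the 22, close to the 24.7% of all genes. Dhodh, an enzyme of pyrimidine synthesis, read 8.07 and 7.96 against 7.66 and 7.43 (-0.47, SE 0.17, adjusted p = 0.544). The folate enzyme gene Mthfd1 had the highest moderated t of this list after Twist1 deletion (0.21, SE 0.16, adjusted p = 0.718) and the lowest in the double deletion, where it read 9.85 and 9.85 against 9.21 and 9.15 (-0.67, SE 0.10, adjusted p = 0.0576). Shmt1, another folate enzyme, was on the other side there, at 8.47 and 8.41 against 8.88 and 8.88 (0.45, SE 0.11, adjusted p = 0.138). In that comparison 12 of 20 genes were lower and none passed.

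Of 18 E2F, Rb and G1/S regulators, 16 were lower after Twist1 deletion (median -0.24), against 54.2% of all genes, and none passed. Lower without overlap were 6 of the 18, against 24.7% of all genes. The fall was mostly in deletion array 2, with a median of -0.49 and 16 genes lower. Deletion array 1 had a median of -0.06 with 12 lower. Fbxo5, an inhibitor of the anaphase-promoting complex, read 8.66 and 8.81 against 8.27 and 7.99 (-0.61, SE 0.17, adjusted p = 0.502), while Cdc25a, a phosphatase that activates Cdk2, overlapped (0.02, SE 0.19). After loss of both genes, 10 of 17 were lower (median -0.06) and none passed. E2f2, an activating E2F, read 8.12 and 7.98 against 7.21 and 6.46 (-1.22, SE 0.29, adjusted p = 0.12), and E2f3 read 6.54 and 6.67 against 6.89 and 6.87 (0.27, SE 0.15, adjusted p = 0.368).

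A list of G2 and mitosis genes, the phases that follow replication, went the same way. After Twist1 deletion 30 of 31 had lower means, with a median of -0.45 against -0.32 for the replication and nucleotide genes. After loss of both genes, 22 of 30 were lower (median -0.12), and deletion array 2 read lower than array 1 in 27 of the 30, as it did in 35 of 38 replication and nucleotide genes. No gene of this list passed in either comparison, and whether the lists differ from each other was not tested.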

How the data were processed

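The authors deposited log2 values, 1 per probe set and array, in 2 tables of 4 arrays of different Affymetrix array types. The scale was read from the values; how probes were summarised and arrays normalized is not stated in the labels. Precision is limited by having 2 arrays per group. Each table was analysed on its own, and levels are not comparable between them. The platform annotation gives 1 gene to 34945 of 45101 probe sets in the Twist1 table and to 28864 of 45083 in the other, and several to 932 and 551. The members and gene lists were chosen with earlier results of these data known.

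Genes under the 20th percentile of probe set means were left out, which kept all 38 replication and nucleotide genes with a probe set. Deletion and control were compared with limma 3.58.1 (lmFit and eBayes with an intensity trend, in R 4.3.3) over all genes, and calls used a Benjamini-Hochberg adjusted p under 0.05. Errors are moderated SE. The difference between deletions was fitted over all 8 arrays, with 1 probe set per gene chosen by mean rank over both tables. The code of the fits was checked on simulated arrays with known changes, which does not test whether the model suits these data. Alternatives changed the filter, the probe set rule, the normalization (quantile), the trend and the threshold, added a replicate block or left out single arrays.

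Named genes are, in each role and comparison, those with the highest and lowest moderated t, and likewise for the other lists. Further replication genes are named to complete their complexes or roles, after their values were seen. Tk1 and Cdc6 in the double deletion were picked, also after their values were seen, as examples of deletion arrays on either side of the controls. Promoters were printed for genes with an E2F word before the start, a limit added after the words had been found. It left out 5 genes with words only after the start, among them Lig1, which had the lowest moderated t of the genes with a word in the double deletion. The level of the p53 gene is not reported here.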

Additional observations from a re-analysis of the deposited data

How the results depend on the processing

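The median change of the replication and nucleotide genes stayed within the spread between arrays under every alternative but the omission of single arrays, where it ran from -0.41 to -0.27 for the Twist1 deletion, from -0.16 to 0.17 for the Twist1/p53 deletion and from 0.28 to 0.50 for the difference. Members called numbered 0 throughout for the Twist1 deletion and the difference. For the Twist1/p53 deletion they numbered 1 lower and 1 higher of the 38 at an adjusted p under 0.10. At that threshold 403 of all 13667 genes passed as lower and 456 as higher. Without single arrays the members called ran from 0 to 12 lower and from 0 to 5 higher.

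Counts over all genes moved more. For the Twist1 deletion, calls lower (1) became 0 with the filter at the 50th percentile, without the intensity trend and with the replicate block, and 2 at an adjusted p under 0.10. Calls higher (4) became 1 with that filter, 2 with the mean over probe sets and 0 with the replicate block. For the Twist1/p53 deletion, 85 lower and 161 higher became 1 and 3 with the replicate block and 403 and 456 at an adjusted p under 0.10. For the difference, 3 below and 20 above 0 became 0 and 6 with the replicate block and 9 and 37 at 0.10, with 10 above 0 under the 50th percentile filter and 8 below 0 with the mean over probe sets. The replicate block changed no call of a replication or nucleotide gene. Arrays with the same number in the labels did not deviate together (correlations of 0.03 and -0.02 across genes). The labels do not say whether such arrays share more than a number. Without single arrays the counts ran from 0 to 19 and from 0 to 37 (Twist1), from 0 to 2088 and from 0 to 1702 (Twist1/p53), and from 0 to 50 and from 9 to 94 (difference).

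The signs of some genes turned. With quantile normalization Orc6 (0.05) and Rpa3 (0.01) were higher after Twist1 deletion, and with the mean over probe sets Uhrf1 was at -0.05 in the double deletion. The mean over probe sets gave 36 genes lower and 1 higher after Twist1 deletion. The higher one was Prim2, whose probe sets changed by -0.43 (the one used), 1.00 and -0.07, and Tyms fell below the filter. Among the genes named by the rule, leaving out single arrays gave ranges that crossed 0 after Twist1 deletion for Orc6 (-0.04 to 0.04, with 0.01 without deletion array 2), Rpa3 (-0.20 to 0.12, with 0.04 without control 1), Pcna (-0.25 to 0.04), Mcm10 (-0.60 to 0.02), Pold1 (-0.18 to 0.03) and Uhrf1 (-0.50 to 0.05), and in the double deletion for Fen1 (-0.06 to 0.39), Pold1 (-0.07 to 0.19), Rfc5 (-0.35 to 0.05) and Uhrf1 (-0.14 to 0.24). Over all 38 genes, the deletion arrays of the double deletion lay on opposite sides of the control mean for 15 with array 1 above, Tk1 among them (-0.47 without array 1 and 0.29 without array 2), and for 1 with array 1 below. The cause was not tested.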

Other observations

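Different probe sets of the same gene mostly had the same direction after Twist1 deletion. Of 71 probe sets of these genes above the filter 68 had lower means in the deletion arrays, and the 3 others belong to Prim2, Mcm5 and Cdc45. For Prim2, the large primase subunit, the probe set used read 8.92 and 8.79 in its controls against 8.21 and 8.65 after deletion, whereas another read 6.03 and 8.74 against 8.35 and 8.42, so that its difference of 1.00 rests on control 1. For Mcm5 a weak probe set read 6.38 and 4.34 against 5.91 and 5.72, and for Cdc45 a second one read 6.09 and 6.26 against 6.47 and 6.40. In the double deletion 35 of 62 probe sets were lower, and for 8 of 21 genes with over 1 probe set the directions differed.

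Against the probe set used, the other probe sets of a gene had no common direction. After Twist1 deletion 24 genes had 33 other probe sets above the filter, of which 16 were lower than the one used, 16 higher and 1 equal at 2 decimals. Examples chosen after their values were seen are Rrm1 (-0.81 against -0.50 for the one used), Rpa2 (-1.02 against -0.36), Prim1 (-0.31 against -0.46) and Orc1 (-0.19 against -0.71). In the double deletion 21 genes had 24 others, 14 lower and 10 higher than the one used.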
